A study of Mus musculus with 8 samples.

Results

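H3K9me2, the dimethyl mark on lysine 9 of histone H3, was mapped by CUT&RUN in regulatory T cells (Treg cells) from tumours of mice lacking Jmjd1c in Treg cells (cKO) and of wild-type mice (WT). The comparison concerns 3 deposited region lists titled KO1 to KO3 against 3 titled WT1 to WT3, chosen by those titles, which are 6 of the 8 libraries of the series. The other libraries are ATAC-seq of wild-type tumour and spleen Treg cells, of which only the tumour list served, as a map of accessible sites. Of 845243 peaks in all 8 lists, 749231 were autosomal H3K9me2 regions, 407230 of them from cKO and 342001 from WT libraries. Only autosomes were used, because the labels do not give the sex of the animals.

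All mice are labelled C57BL/6 and aged 8 to 12 weeks. The cKO label reads JMJD1CTregcKO and the WT label JMJD1CWT, and no label names a Cre driver. The labels describe Treg cells taken from digested tumours by Percoll, magnetic selection and flow sorting on a fluorescence signal. They do not say whether the 3 libraries of a group came from separate animals, so the p-values measure the spread between these libraries, which may be technical. Because each library is a bulk preparation, a mark carried by fewer cells and a weaker mark per cell cannot be told apart. In the tumour ATAC-seq list, 5 of 6 Treg marker genes and 3 of 3 T cell marker genes carried a peak, with Ctla4 the Treg marker without one. Markers of other cells carried peaks in 1 of 4 cases for CD8 T and NK cells, 2 of 4 for B cells, 2 of 4 for myeloid cells, 0 of 4 for melanocytes and epithelium, and 2 of 2 for stromal cells. H3K9me2 lists do not show expression, so the sorted cells of these 6 libraries could not be checked by markers.

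H3K9me2 is written mainly by the methyltransferases G9a and GLP and is removed by JmjC-domain demethylases. JMJD1C (KDM3C) belongs to the KDM3 family of such enzymes, which act on mono- and dimethylated H3K9. The mark covers broad, weakly expressed stretches of chromatin in lymphocytes as in other cells, often gene-poor and at the nuclear periphery. Treg cells are the FOXP3-expressing T cells that restrain immune responses, in tumours included. The question here was whether the regions called in cKO cells differ from those in WT cells in size, spacing, position or clustering.

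Each list was called on its own library with HOMER findPeaks, and lists held 166835, 132724 and 107671 autosomal regions in cKO 1, 2 and 3 and 113815, 126458 and 101728 in WT 1, 2 and 3. Sequencing gave between 24774509 and 30313851 tags per library. The groups overlapped in list length, so every property was measured in the lists as deposited, in lists cut to the 101728 regions with the highest findPeaks Score (the tag-based peak score in the files), and in lists thinned to that length evenly along the Score ranking. The Score cut fell at 8, 6 and 5 in cKO 1, 2 and 3 and at 5, 5.5 and 5 in WT 1, 2 and 3, so it removed the most regions, up to the highest Score, from cKO 1. Per the headers, 1 setting (-L) was 10 times lower in cKO 3 than in the other 5 libraries, and its part in the results was not tested.

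Few promoters were touched by a region, and very few separated the genotypes. Of 20085 RefSeq promoters (GRCm38.p6, 250 bases before to 50 after a start, 300 in all, matched to 16457 genes), regions touched 972, 1212 and 939 in cKO 1, 2 and 3 and 640, 1169 and 925 in WT 1, 2 and 3. The ranges overlapped (mean 1041 ± 149 against 911 ± 265, SD, n = 3 each, exact two-sided permutation p = 0.4). Only 11 promoters (0.0548%) were touched in all 3 cKO and no WT library, 6 (0.0299%) in all 3 WT and no cKO library, and 2 in all 6. The 6 printed next are the highest 2 of each pattern by the lowest Score among the touching libraries, shown so that the bases behind each pattern can be read, with CG dinucleotides in capitals. The first pair was touched in cKO only, the second in WT only, and the third in all 6 libraries.
Olfr172 (chr16:58761191-58761490, minus strand): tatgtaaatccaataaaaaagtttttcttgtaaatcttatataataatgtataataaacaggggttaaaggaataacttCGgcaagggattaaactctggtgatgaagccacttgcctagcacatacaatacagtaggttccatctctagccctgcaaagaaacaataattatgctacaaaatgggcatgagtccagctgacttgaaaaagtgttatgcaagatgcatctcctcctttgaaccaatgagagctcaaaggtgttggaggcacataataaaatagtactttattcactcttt
Pla2g4c (chr7:13325417-13325716, plus strand): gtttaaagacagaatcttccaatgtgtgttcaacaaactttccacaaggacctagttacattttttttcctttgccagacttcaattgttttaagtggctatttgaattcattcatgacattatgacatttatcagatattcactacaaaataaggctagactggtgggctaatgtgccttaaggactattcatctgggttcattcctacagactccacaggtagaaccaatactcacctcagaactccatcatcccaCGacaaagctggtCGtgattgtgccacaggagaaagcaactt
Akr1cl (chr1:65032710-65033009, minus strand): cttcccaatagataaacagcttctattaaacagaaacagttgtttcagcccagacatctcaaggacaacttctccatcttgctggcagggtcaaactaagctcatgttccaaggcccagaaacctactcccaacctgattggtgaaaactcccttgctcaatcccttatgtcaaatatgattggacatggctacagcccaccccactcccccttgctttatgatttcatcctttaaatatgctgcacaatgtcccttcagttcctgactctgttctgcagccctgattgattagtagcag
Zfp160 (chr17:21008691-21008990, plus strand): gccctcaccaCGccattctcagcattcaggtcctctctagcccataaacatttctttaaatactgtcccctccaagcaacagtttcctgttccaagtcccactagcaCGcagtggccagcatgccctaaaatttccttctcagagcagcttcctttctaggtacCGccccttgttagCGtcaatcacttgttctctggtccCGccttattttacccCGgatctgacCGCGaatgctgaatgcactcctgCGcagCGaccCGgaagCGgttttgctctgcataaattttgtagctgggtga
Zfp971 (chr2:178023034-178023333, plus strand): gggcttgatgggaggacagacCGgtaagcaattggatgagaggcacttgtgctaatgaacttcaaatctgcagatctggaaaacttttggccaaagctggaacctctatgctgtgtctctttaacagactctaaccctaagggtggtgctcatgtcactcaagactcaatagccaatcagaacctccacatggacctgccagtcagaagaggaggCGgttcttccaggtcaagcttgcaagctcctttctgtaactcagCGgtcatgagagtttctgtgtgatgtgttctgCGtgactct
Gm14322 (chr2:177759038-177759337, plus strand): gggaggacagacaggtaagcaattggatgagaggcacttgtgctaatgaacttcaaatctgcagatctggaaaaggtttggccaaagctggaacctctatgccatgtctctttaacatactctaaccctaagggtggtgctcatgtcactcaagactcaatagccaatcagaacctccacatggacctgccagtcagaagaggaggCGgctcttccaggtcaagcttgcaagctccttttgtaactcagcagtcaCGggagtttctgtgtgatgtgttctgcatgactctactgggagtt

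Olfr172, an olfactory receptor gene, had regions with a Score of 10.5, 10 and 9.5 at its promoter in cKO 1, 2 and 3. Pla2g4c, a cytosolic phospholipase A2 gene, had Scores of 8.5, 11.5 and 10 there. Both were without a region in every WT library, and their sequences hold 1 and 2 CG dinucleotides. Akr1cl, an aldo-keto reductase gene, had Scores of 8.5, 12 and 9 in WT 1, 2 and 3, and Zfp160, a zinc-finger gene, had 8, 8 and 8. The Akr1cl promoter has 0 CG dinucleotides and that of Zfp160 has 12. Zfp971 and Gm14322 lie on the same chromosome and share an exact run of 91 bases, so reads of the pair may have been split between them and their regions are uncertain.

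Touched promoters held fewer CG dinucleotides on average than promoters at large in all 6 libraries, and genotypes did not separate. The mean over all promoters was 15.7 CG per 300 bases, against 11.8, 14.1 and 12.8 at touched promoters in cKO 1, 2 and 3 and 11.5, 12.4 and 14.02 in WT 1, 2 and 3 (exact permutation p = 0.7). Promoters with 5 CG or fewer made up 31.4% of all promoters. Among touched promoters they made up 36.7%, 29.7% and 31.2% in cKO 1, 2 and 3. In WT 1, 2 and 3 they made up 40.2%, 31.5% and 28.9%, so their share was not raised in every library. The STAT motif TTCNNNGAA, which reads the same on both strands, occurred in 7.78% of all promoters. It occurred in 9.05%, 10.97% and 10.2% of touched promoters in cKO 1, 2 and 3 and in 10.6%, 9.84% and 8.86% in WT 1, 2 and 3. A match is a description of the letters and not a binding site.

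Region size did not separate cKO from WT cells in the lists as deposited. The median region was 631, 634 and 632 bp long in cKO 1, 2 and 3 and 634, 627 and 628 bp in WT 1, 2 and 3 (exact permutation p = 0.4). Regions of 1 kb or more made up 19.2%, 22.5% and 23.9% of the cKO lists and 21.8%, 19.5% and 21.5% of the WT lists, and the groups overlapped (p = 0.6 by the same exact test). The 90th percentile lay at 1437, 1552 and 1580 bp in cKO against 1522, 1471 and 1540 bp in WT. Of the 14 properties compared, 0 (0%) had groups that did not overlap, and all adjusted exact permutation p were between 0.7 and 0.9. With 3 against 3 libraries the smallest exact p is 0.1, so no property could pass 0.05.

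In lists of equal length, regions of 1 kb or more were more frequent in all 3 cKO libraries, but those of 2 kb or more were not. The share of 1 kb or more was 24.4%, 26.3% and 24.5% in cKO 1, 2 and 3 and 23.6%, 22.5% and 21.5% in WT 1, 2 and 3, with no overlap. The 90th percentile was 1574, 1646 and 1595 bp in cKO and 1572, 1552 and 1540 bp in WT, also without overlap. Regions of 2 kb or more made up 3.75%, 4.73% and 3.73% in cKO and 3.92%, 3.58% and 3.50% in WT, which overlap. The first pair of measures were 2 of 14 properties (14.3%), each at the smallest exact permutation p of 0.1 and at 0.7 after adjustment. Per chromosome, the share of 1 kb or more was higher in every cKO library than in every WT library on 13 of 19 autosomes (68.4%) in equal lists and on 0 of 19 (0%) as deposited. Thinning evenly along the Score ranking left 0 of 14 properties (0%) without overlap.

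**Figure D1:**
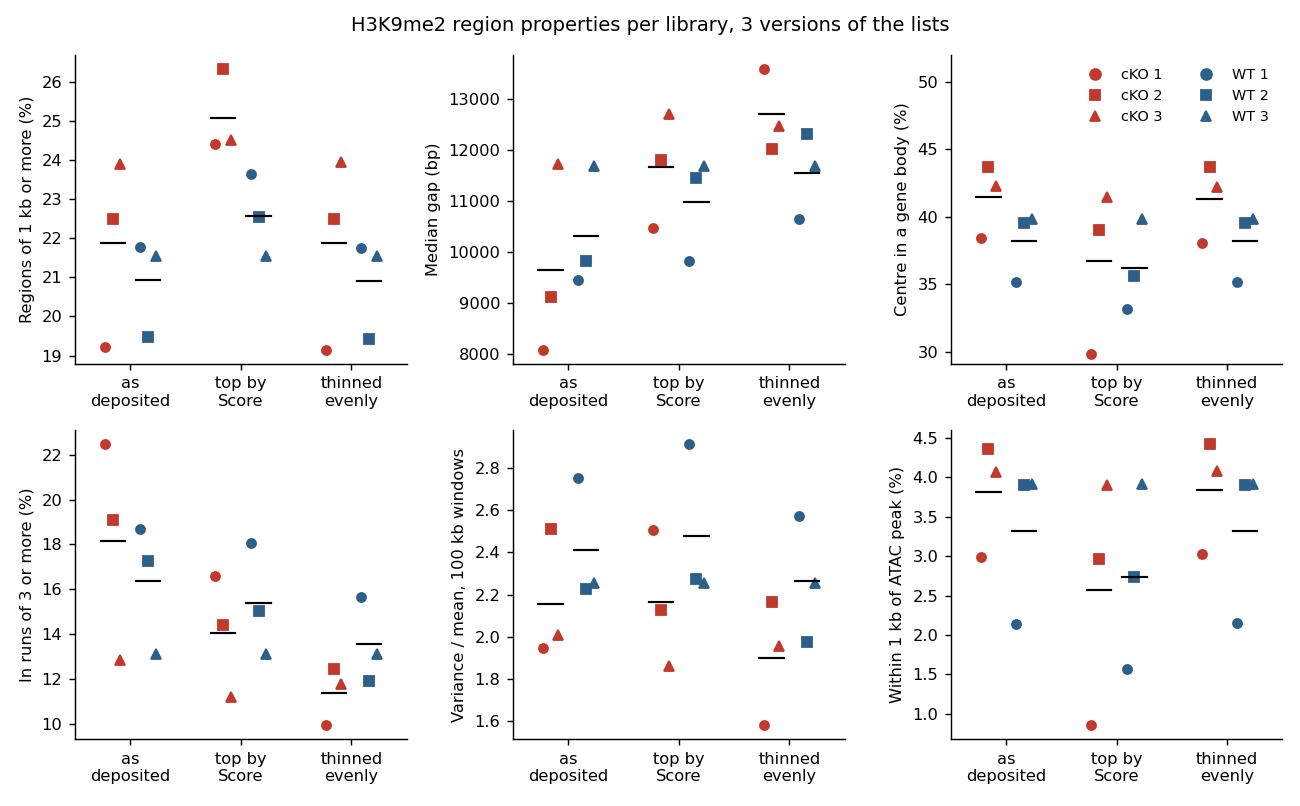
The 6 panels show size, spacing, position, clustering and nearness to ATAC-seq peaks on the vertical axes, in the units named there, with 1 point per cKO or WT library and the group mean as a line, for lists as deposited, cut to equal length by Score and thinned evenly. Groups overlap in every panel as deposited, while in the lists cut by Score the share of 1 kb or more reaches from 24.4% to 26.3% in cKO and from 21.5% to 23.6% in WT.

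The lower end of the size range is set by the caller. Regions at exactly 500 bp, the peak size in the headers, made up 43.9%, 43.4% and 45.2% of the cKO lists and 42.3%, 47.9% and 47.8% of the WT lists. The longest region of each library was 4946, 5200 and 5997 bp in cKO and 5895, 5342 and 5107 bp in WT, so neither genotype held the longer extremes. The longest of all, chr11:18629717-18635714 in cKO 3 (mm10), lay nearest to Meis1, a homeobox transcription factor gene. Intergenic regions were larger on average than those in gene bodies in all 6 libraries, at 826 to 892 bp against 723 to 775 bp. Within 1 Mb windows, 2 of 2349 (0.0851%) had a larger mean region size in cKO and 0 (0%) a smaller one (limma, adjusted p under 0.05), while groups did not overlap in 204 windows higher (8.68%) and 69 lower (2.94%) in cKO, 11.6% in all.

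Those windows lay at Jarid2 and on chromosome 9. At chr13:44000001-45000000, which holds Jarid2, a component of Polycomb repressive complex 2, and Dtnbp1, mean region size was 719, 733 and 789 bp in cKO and 571, 604 and 569 bp in WT (log2 difference 0.36, limma adjusted p = 0.031). At chr9:66000001-67000000, with 15 genes, it was 654, 680 and 741 bp in cKO and 545, 547 and 543 bp in WT (log2 difference 0.34, limma adjusted p = 0.042). No cKO value overlapped a WT value in either window. With the replicate number as a block both lost the call (limma adjusted p = 0.145), and 0 windows were called in equal lists. Leaving out WT 1 gave 14 calls, and leaving out any of the other 5 libraries gave 0.

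Spacing did not separate the genotypes in the lists as deposited. The median gap to the next region was 8091, 9119 and 11726 bp in cKO 1, 2 and 3 and 9460, 9826 and 11678 bp in WT 1, 2 and 3 (exact permutation p = 0.6). Gaps of 5 kb or less made up 30.7%, 27.4% and 22.2% in cKO and 27.2%, 26.1% and 22.4% in WT, overlapping again. In equal lists the median gap was 10475, 11799 and 12696 bp in cKO and 9828, 11442 and 11678 bp in WT, and the mean difference changed sign to a wider cKO spacing of 674 bp. In evenly thinned lists it was 13591, 12025 and 12473 bp in cKO and 10657, 12306 and 11678 bp in WT. None of these 3 versions separated the groups.

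The direction of long gaps depended on the length taken as long. Gaps over 100 kb had a lower mean in cKO in every version of the lists. The cKO means were 1.63%, 2.89% and 2.84% as deposited, in equal lists and in thinned lists, against 2.62%, 3.41% and 3.16% in WT. Gaps over 50 kb turned, from means of 6.80% in cKO and 8.57% in WT as deposited to 10.8% and 10.3% in thinned lists. In equal lists, gaps over 100 kb were 2.87%, 3.02% and 2.79% of all gaps in cKO 1, 2 and 3 and 3.92%, 3.22% and 3.07% in WT 1, 2 and 3, with no overlap (exact permutation p = 0.1, the smallest possible). As deposited the groups overlapped, at 0.490% to 2.58% in cKO and 1.85% to 3.07% in WT. Evenly thinned lists overlapped too, at 2.34% to 3.25% against 2.82% to 3.58%. In those thinned lists gaps over 50 kb were more frequent in every cKO library, at 11.03%, 10.6% and 10.9% against 10.6%, 10.1% and 10.1%, with no overlap (exact permutation p = 0.1). The 90th percentile gap was then also longer in every cKO library, at 52792, 51994 and 52588 bp against 51834, 50304 and 50337 bp. In equal lists gaps over 50 kb overlapped, at means of 10.5% in cKO and 10.4% in WT. The share of close gaps per 1 Mb window differed in 0 of 2350 windows (0%) by limma at adjusted p under 0.05, with 91 higher and 59 lower at unadjusted p under 0.05. That balance turned in the shorter lists, to 37 higher and 88 lower in equal lists and to 30 higher and 185 lower in thinned lists, again with 0 calls. As deposited, groups did not overlap in 206 windows higher (8.77%) and 65 lower (2.77%), 11.5% in all. The window higher in cKO with the lowest p, chr1:191000001-192000000 with the transcription factor genes Batf3 and Atf3, had a mean of 30.5% ± 5.21 close gaps in cKO and 7.39% ± 5.41 in WT (SD, n = 3 each), without passing the test. The window lower in cKO with the lowest p, chr1:101000001-102000000, had 16.1% ± 7.11 against 34.5% ± 7.61, and did not pass either. The smallest gap was 500 bp in every library.

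Regions lay more often in gene bodies and less often between genes in cKO on average, but the groups overlapped. The direction was the same within each numbered pair, though no label gives pairs and they were taken from these same data. Gene bodies held 38.4%, 43.7% and 42.2% of regions in cKO 1, 2 and 3 and 35.2%, 39.6% and 39.8% in WT 1, 2 and 3. The mean was 41.5% ± 2.74 against 38.2% ± 2.60 (SD, n = 3 each), higher in 3 of 3 pairs (exact permutation p = 0.3, sign-flip p over pairs 0.25, the smallest possible). Intergenic space held 59.1%, 52.9% and 54.6% in cKO and 62.7%, 57.4% and 57.1% in WT, lower in cKO in 3 of 3 pairs. Gene ends, within 1 kb of a start or an end, held 2.52%, 3.36% and 3.16% against 2.07%, 3.01% and 3.04%. In equal lists gene bodies held 29.8%, 39.0% and 41.5% in cKO and 33.2%, 35.6% and 39.8% in WT, a difference within the spread (exact permutation p = 0.9).

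Position depended strongly on the Score of a region, in both genotypes. Each list was divided by Score into 5 equal bands. In the highest band, gene bodies held 25.2%, 26.0% and 25.9% of cKO regions and 26.0%, 25.4% and 25.0% of WT regions. In the lowest band they held 55.4%, 59.99% and 58.7% in cKO and 49.9%, 55.7% and 55.1% in WT. The genotypes were thus nearly equal at the top and overlapped by a narrow margin at the bottom. Regions within 1 kb of a tumour ATAC-seq peak, that is near sites accessible in wild-type tumour Treg cells, were also more frequent at low Scores, from between 0.153% and 0.294% in the highest band to between 6.07% and 9.32% in the lowest. Regions of 1 kb or more ran the other way, from between 25.1% and 37.5% in the highest band to between 6.78% and 10.4% in the lowest. A list cut by Score therefore loses regions in genes and near accessible sites first, which bears on every equal-list value given here.

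**Figure D2:**
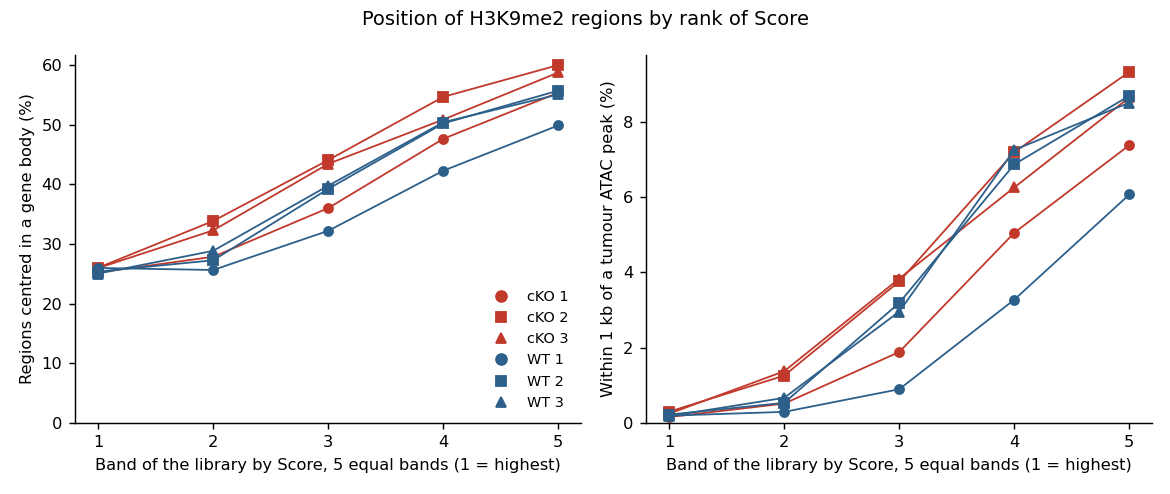
The percent of regions in gene bodies and within 1 kb of a tumour ATAC-seq peak is drawn on the vertical axes against 5 equal bands of each list by Score, from highest to lowest, with 1 line per library. All 6 lines end higher than they start, from 25.0% to 26.0% in gene bodies at the top to between 49.9% and 59.99% at the bottom.

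By gene length, 1 of 5 classes separated the groups. Relative to the length they cover, genes of 200 to 500 kb held regions at 1.08, 1.12 and 1.1096 times the autosomal mean in cKO 1, 2 and 3 and at 1.04, 1.06 and 1.08 times in WT 1, 2 and 3, with no overlap (exact permutation p = 0.1). Genes over 500 kb held 0.913, 0.724 and 0.762 times the mean in cKO and 1.02, 0.837 and 0.821 times in WT, lower in each numbered pair, with overlapping groups. The 3 classes of genes under 200 kb overlapped (exact permutation p = 0.3 to 0.6), and in equal lists every class overlapped. Around gene starts, 2 of 40 bins of 1 kb (5%) separated the groups as deposited and 0 of 40 (0%) in equal lists. The bin from 3 to 2 kb upstream held regions at 1.04, 1.34 and 1.32 times the autosomal mean in cKO and 0.760, 1.01 and 1.02 times in WT, and the bin before it was the other one. The first 1 kb downstream of the start held fewer regions than the 1 kb before it in all 6 libraries, at 0.517, 0.829 and 0.763 times in cKO and 0.468, 0.876 and 0.865 times in WT.

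Clustering differed by less than the spread (SD) between libraries as deposited and in equal lists, and the groups overlapped in every version of the lists. Runs of 3 or more regions with neighbours within 5 kb held 22.5%, 19.1% and 12.9% of regions in cKO 1, 2 and 3 and 18.7%, 17.3% and 13.1% in WT 1, 2 and 3 (exact permutation p = 0.6). In equal lists they held 16.6%, 14.4% and 11.2% in cKO and 18.1%, 15.01% and 13.1% in WT, lower in 3 of 3 pairs with overlapping groups. The variance of counts over their mean in 100 kb windows, which is 1 for regions placed at random, was 1.95, 2.51 and 2.0101 in cKO and 2.75, 2.23 and 2.25 in WT (exact permutation p = 0.4). The longest run held 11, 12 and 9 regions in cKO and 13, 11 and 11 in WT. The run of 13, at chr14:6778531-6826668 in WT 1, lay nearest to Gm3642, a predicted gene in a cluster of near-identical copies, so its reads are uncertain. The genotypes also shared places to a like degree: in equal lists, a library's regions touched those of the other libraries of its group at 15.9% to 18.7% on average and those of the other group at 15.2% to 18.2%.

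The regions were spread unequally over chromosomes in cKO and WT cells. As deposited, the share of autosomal regions separated the groups on 11 of 19 autosomes (57.9%), with chromosomes 9, 10, 13, 17, 18 and 19 higher in cKO and 1, 4, 7, 8 and 14 lower. Chromosome 8 held 5.39%, 5.23% and 5.27% of regions in cKO 1, 2 and 3 and 6.03%, 5.84% and 5.88% in WT 1, 2 and 3, a ratio of means of 0.896. Chromosome 19 held 2.54%, 2.68% and 2.70% in cKO and 2.20%, 2.46% and 2.396% in WT, a ratio of 1.12. On both chromosomes every cKO library lay on 1 side of every WT library, at the smallest exact permutation p of 0.1 and an adjusted p of 0.173. In equal lists 6 of 19 (31.6%) separated, with 10, 12, 13 and 17 higher, 4 and 7 lower, and chromosomes 8 and 19 overlapping. Shares sum to 100%, so chromosomes are not independent.

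**Figure D3:**
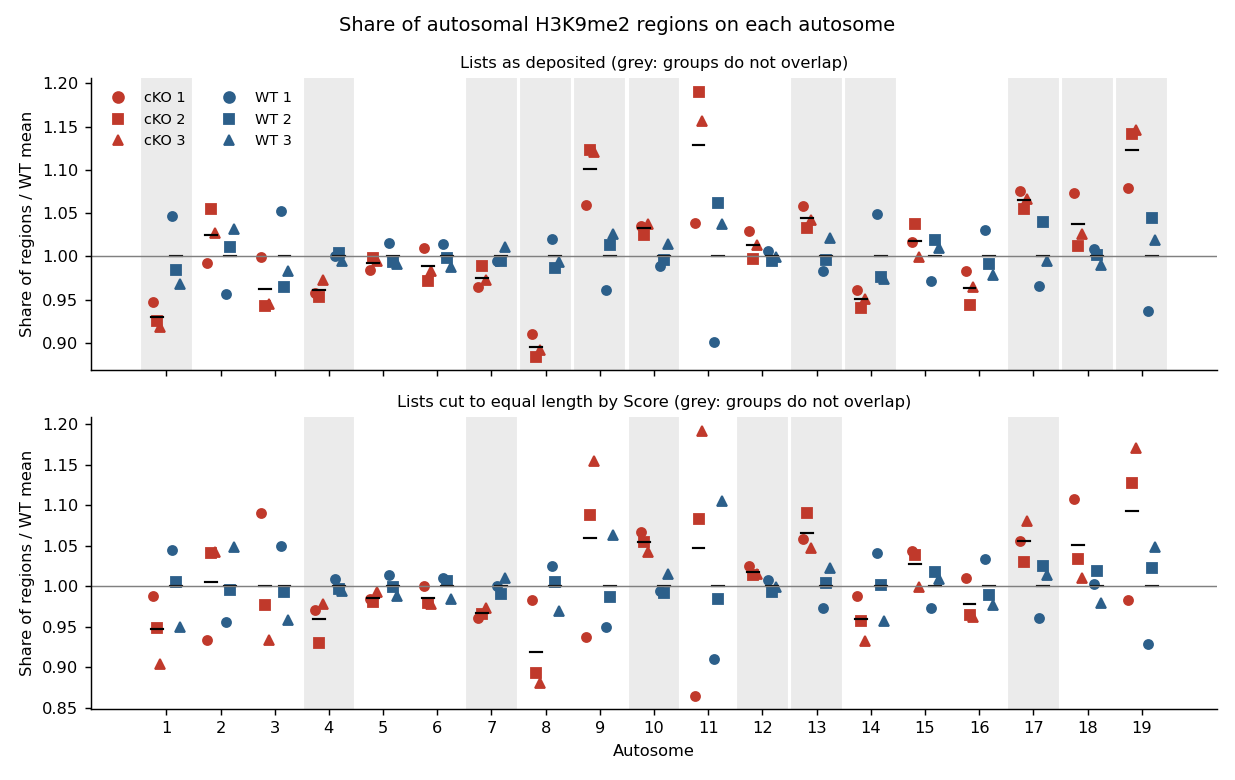
The share of autosomal regions on each of the 19 autosomes is drawn for every library, divided by the WT mean of that chromosome, with group means as lines and grey bands where the groups do not overlap, for lists as deposited (upper panel) and cut to equal length by Score (lower panel). The cKO mean of chromosome 8 lies at 0.896 and that of chromosome 19 at 1.12 as deposited, and 11 bands are grey there against 6 in equal lists.

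At the scale of 1 Mb, gene-free windows held a smaller share of regions in cKO cells. Of every 1000 autosomal regions, windows without a protein-coding gene (266 of 2406 tested) held 93.9, 64.5 and 72.2 in cKO 1, 2 and 3 and 137, 104 and 96.2 in WT 1, 2 and 3. No cKO library reached a WT library (mean 76.9 ± 15.2 against 113 ± 21.9, SD, n = 3 each, exact permutation p = 0.1, the smallest possible). Even thinning gave 93.9, 64.3 and 72.2 against 138, 104 and 96.2, again apart. The cut by Score gave 146, 82.6 and 76.0 against 153, 128 and 96.2, which overlap (exact permutation p = 0.4). Windows with 5 to 14 genes held 418, 455 and 446 per 1000 in cKO and 386, 410 and 422 in WT, with overlap.

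Window by window, limma on log2(regions + 1) scaled to list length called 18 of 2406 windows higher (0.748%) and 131 lower (5.44%) in cKO at adjusted p under 0.05, 6.19% in all. With the replicate number as a block, a pairing taken from these same data, 272 were higher (11.3%) and 345 lower (14.3%), 25.6% in all. Scaled values of the groups did not overlap in 329 windows higher (13.7%) and 305 lower (12.7%), 26.4% in all. In lists cut to equal length by Score 0 windows were called (0%), with 40 higher and 64 lower at unadjusted p under 0.05. Leaving cKO 1, the list cut most, out of those equal lists gave 1 called higher and 82 lower. Of the 131 lower windows, 72 were called again there. Leaving any other library out of the equal lists gave 0 calls. Evenly thinned lists, also of equal length, gave 9 called higher and 106 lower. The excess of lower calls was thus kept in thinned lists, but it changed with the scaling and the variance trend. Without scaling, and so with lists of unlike length, 2 windows were called higher and 0 lower. At unadjusted p under 0.05 it was then 338 higher and 91 lower. Without a trend 3 were called higher and 0 lower, with 216 higher and 304 lower at unadjusted p under 0.05. In the lists as deposited, called windows numbered 249 without cKO 1, 25 without cKO 2 and 30 without cKO 3. They numbered 112 without WT 1, 39 without WT 2 and 126 without WT 3. Of the 131 lower windows 70 held no gene (53.4%), against 3 of the 18 higher windows (16.7%) and 266 of 2406 tested (11.1%). Chromosome 1 had 24 of the 131 in 192 windows tested, chromosome 8 had 17 in 127, chromosome 4 had 15 in 153 and chromosome 14 had 14 in 121. Chromosomes 9, 11 and 13 had 0, in 122, 119 and 118 windows tested.

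Among the windows with the lowest p, higher in cKO was chr5:39000001-40000000, with Hs3st1, a heparan sulfate sulfotransferase, at 32, 13 and 23 regions in cKO against 4, 4 and 3 in WT (log2 difference 2.03 ± 0.33, SE, limma adjusted p = 0.0099). Also higher was chr15:42000001-43000000, with Angpt1, the angiopoietin ligand of the TIE2 receptor, at 42, 21 and 20 against 7, 9 and 5 (log2 difference 1.56, limma adjusted p = 0.012). In both windows each cKO count exceeded each WT count, before any scaling. Lower was chr7:40000001-41000000, with Vstm2b, at 80, 57 and 46 regions in cKO against 112, 94 and 83 in WT (log2 difference -0.91, limma adjusted p = 0.0099). Lower too was chr1:110000001-111000000, with the cadherin genes Cdh7 and Cdh19, at 73, 46 and 37 against 101, 92 and 70 (log2 difference -1.02). The raw counts of the chromosome 1 window overlap, and they separate only after scaling to list length. The third window in each direction had no protein-coding gene centred in it: chr19:35000001-36000000 had 49, 17 and 26 regions against 5, 11 and 5, and chr1:114000001-115000000 had 81, 57 and 47 against 104, 108 and 69.

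**Figure D4:**
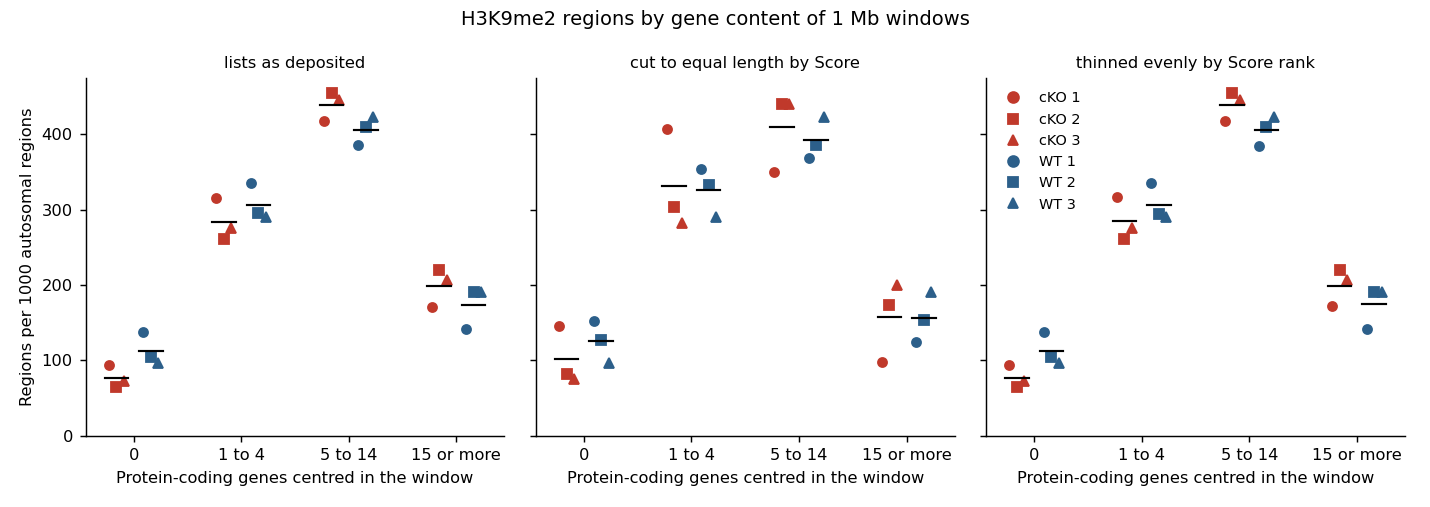
Regions per 1000 autosomal regions are drawn for 1 Mb windows grouped by the number of protein-coding genes centred in them, with 1 point per library and the group mean as a line, for lists as deposited, cut to equal length by Score and thinned evenly. In windows with 0 genes as deposited the cKO libraries lie between 64.5 and 93.9 and the WT libraries between 96.2 and 137.

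Gene by gene, few genes passed the test. Of 20665 autosomal protein-coding genes, 4238 had at least 3 regions on average and were tested. By limma 2 were called higher (0.0472%) and 7 lower (0.165%) at adjusted p under 0.05, 0.212% in all. With the replicate number as a block, again a pairing taken from the data, it was 98 higher (2.31%) and 67 lower (1.58%), 3.89% in all. Scaled values of the groups did not overlap in 394 genes higher (9.3%) and 245 lower (5.78%), 15.1% in all. Equal and thinned lists gave 0 calls (0%), and 0 genes passed without cKO 2, cKO 3 or WT 2. The direction of the calls also changed with the library left out, with 5 higher and 0 lower without WT 1 and 0 higher and 13 lower without cKO 1. Without scaling 0 genes passed, with 591 higher and 28 lower at unadjusted p under 0.05. The median log2 difference over all tested genes was 0.12, and -0.08 in equal lists, beside which single genes are to be read. Counts are per gene and not per length, so levels are not compared between genes.

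Plxna4, a plexin receptor for semaphorins (chr6:32144543-32588192), held 26, 19 and 16 regions in cKO 1, 2 and 3 and 6, 6 and 4 in WT 1, 2 and 3. The cKO counts were all above the WT counts (20.3 ± 5.13 against 5.33 ± 1.15, SD, log2 difference 1.51 ± 0.28, SE, limma adjusted p = 0.0435). Ttc29, an axonemal protein gene (chr8:78213282-78394326), held 15, 12 and 9 regions against 3, 2 and 0, again apart (log2 difference 2.24 ± 0.46, SE, limma adjusted p = 0.0464). Next in order, without passing, were Rbms3, an RNA-binding protein gene, at 40, 19 and 28 against 13, 10 and 6, and Ghr, the growth hormone receptor gene, at 15, 6 and 7 against 2, 0 and 0. Both passed with the replicate block and without WT 1. Smyd3, a lysine methyltransferase gene, followed at 51, 64 and 43 against 16, 21 and 28. Grm8, 4932438A13Rik, Plcb1, Rarb and Prex2 completed the 10 with the lowest p among those higher, at limma adjusted p of 0.105 to 0.116.

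Ptprd, a receptor tyrosine phosphatase of synapses and the gene with the most regions (chr4:75941237-78211742), held 133, 85 and 57 regions in cKO and 178, 128 and 123 in WT. Its highest cKO count lay above 2 WT counts, and the libraries separate after scaling to list length (log2 difference -0.93 ± 0.18, SE, limma adjusted p = 0.0435). Csmd1, a complement-regulating membrane protein gene (chr8:15892538-17535385), held 111, 54 and 44 against 131, 120 and 77 (log2 difference -0.96, limma adjusted p = 0.0478). The others that passed were the adhesion receptor genes Adgrb3, at 46, 24 and 17 against 56, 56 and 43, and Adgrl3, at 52, 31 and 27 against 77, 56 and 53. Klhl1, a neuronal kelch protein gene, held 24, 15 and 6 against 39, 30 and 26. Dpp10, an auxiliary potassium channel subunit gene, held 76, 50 and 33 against 99, 93 and 62, and Lrrc4c, a netrin-G ligand gene, held 76, 43 and 46 against 113, 83 and 72. Among these 7 genes, raw counts were apart only for Adgrl3 and Klhl1. Naaladl2, Ctnna2 and Cntnap5a came next at limma adjusted p of 0.0709 to 0.0947, and passed with the block. The other genes among the 5 with the most regions did not pass. Sox5, a transcription factor gene, held 135, 88 and 84 against 94, 103 and 83, apart and lower in cKO after scaling (log2 difference -0.13, limma adjusted p = 0.794). Cdh13 held 132, 103 and 91 against 103, 98 and 109, and Pde4d, a cyclic AMP phosphodiesterase gene, held 133, 87 and 89 against 77, 73 and 76 (limma adjusted p = 0.728 and 0.729).

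**Figure D5:**
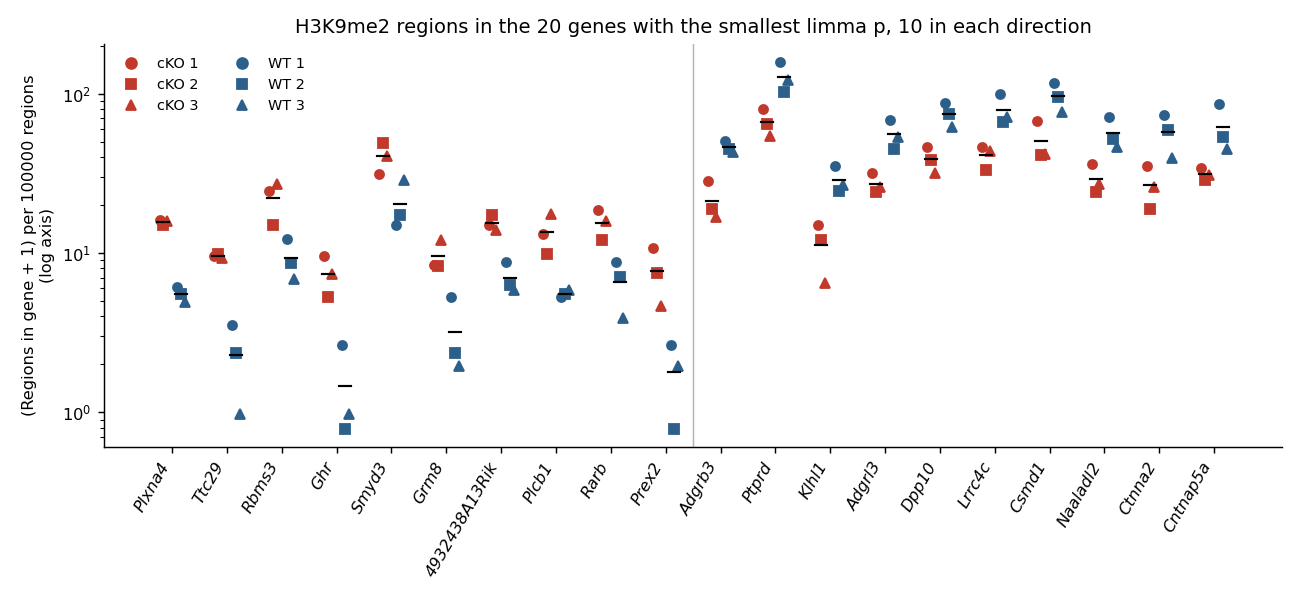
The number of regions in a gene, plus 1 and scaled to list length, is drawn on a log axis for the 10 genes with the smallest limma p in each direction, with 1 point per library and the group mean as a line. Every cKO point lies above every WT point for the 10 genes on the left and below for the 10 on the right, which the choice of genes required.

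Genes over 500 kb held 6 of the 7 lower calls in the lists as deposited. Of 214 tested genes over 500 kb, 0 were called higher and 6 lower, and 20 higher and 42 lower with the replicate block. Of 2765 tested genes of 50 to 200 kb, 1 was called higher and 0 lower, and 53 higher and 8 lower with the block. Of 708 tested genes of 200 to 500 kb, 1 was called higher and 1 lower, and 25 higher and 17 lower with the block. The 551 tested genes under 50 kb gave 0 calls. Over all tested genes 0.0472% were called higher and 0.165% lower, and 2.31% and 1.58% with the block. Of the 7 lower calls, 0 held in equal or thinned lists, without a trend or without scaling. The differences between these classes were not tested.

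The pathway and cell type lists gave 0 calls in all 19 lists without the block. Counts of positive members are to be read against all tested genes, of which 60.1% had a positive log2 difference as deposited and 44.2% in equal lists. Treg identity genes, such as Entpd1, the ectonucleotidase CD39, had a positive log2 difference (more in cKO) in 7 of 7 tested genes, with a median log2 difference of 0.68 beside 0.12 over all genes, but in equal lists in 1 of 5, with a median of -0.30. Entpd1 itself held 13, 9 and 12 regions in cKO and 8, 4 and 4 in WT, apart in raw counts but overlapping after scaling to list length (limma adjusted p = 0.425). Genes of the PI3K-AKT-mTOR pathway, a growth signal that Treg cells keep low, were positive in 14 of 15 tested (median 0.41), but in equal lists in 2 of 6 (median -0.20). Among them Pdpk1, the kinase PDK1, held 6, 6 and 4 regions against 1, 1 and 2, and Pik3cg, a PI3K catalytic subunit, held 6, 6 and 4 against 1, 2 and 3. All 4 tested H3K9 methyltransferase and reader genes were positive, among them Ehmt1, which encodes GLP, at 4, 8 and 10 against 1, 8 and 1 (limma adjusted p = 0.530). Of the H3K9 demethylases 1 of 3 was positive, and Kdm4c held 18, 15 and 17 against 18, 17 and 14.

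Prdm1, which encodes the effector Treg factor BLIMP1, held 15, 11 and 7 regions in cKO and 2, 5 and 2 in WT. All cKO counts were above the WT counts (log2 difference 1.38, limma adjusted p = 0.153, and 0.0146 with the replicate block). In the same list of tumour and effector Treg genes, 3 of 5 tested were positive. Of the inhibitory receptor genes 4 of 7 were positive, with Lair1, a collagen-binding inhibitory receptor, at 5, 6 and 5 against 8, 8 and 10 and Pdcd1lg2, which encodes PD-L2, at 5, 9 and 4 against 1, 4 and 2. JAK-STAT3 genes were positive in 2 of 4 and T helper 1 genes in 3 of 4, with Stat4 at 7, 12 and 7 against 2, 6 and 6. Genes of naive T cells were positive in 4 of 5 as deposited and in 0 of 3 in equal lists, with Bcl2, the survival gene, at 10, 14 and 15 against 6, 9 and 8. Jmjd1c itself held 7, 9 and 5 regions against 3, 7 and 5 (limma adjusted p = 0.878), which checks nothing about its deletion. Pdcd1, the gene of the PD-1 receptor, held 0, 2 and 0 against 1, 1 and 1, and Stat3 held 0, 5 and 1 against 0, 1 and 0, both under the minimum for testing.

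Markers of other cell types were few among tested genes. B cell genes were positive in 2 of 3, and Ebf1, a B cell transcription factor, held 46, 47 and 22 regions in cKO against 45, 51 and 44 in WT (limma adjusted p = 0.301, and 0.0340 with the replicate block). Myeloid genes were positive in 2 of 2, with Itgam, the integrin CD11b, at 6, 5 and 6 against 3, 2 and 3. Stromal and endothelial genes were positive in 2 of 5, melanocyte and epithelial genes in 1 of 2, and no CD8 T, NK or ubiquitous gene reached the minimum. The part of other cells in the results was not tested.

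Among the clustered gene families, only vomeronasal receptor genes had shares of regions that did not overlap between groups as deposited. Vomeronasal receptor genes, pheromone receptors in tandem arrays, held 1.08, 0.934 and 0.789 of every 1000 regions in cKO 1, 2 and 3 and 1.26, 1.14 and 1.09 in WT 1, 2 and 3, summed over all 354 members, so that each cKO library lay below each WT library. In equal lists the groups overlapped, at 1.44, 1.07 and 0.836 against 1.38, 1.34 and 1.09. Only 9 members reached the minimum, 1 of them positive. Vmn2r60 held 5, 2 and 1 regions against 10, 5 and 9 (limma adjusted p = 0.152, and 0.00791 with the replicate block). Zinc-finger genes held 7.13, 8.27 and 7.92 of every 1000 regions in cKO and 6.96, 7.47 and 7.85 in WT, with overlap. They were positive in 29 of 59 tested, below the 60.1% of all tested genes. Clustered protocadherins were positive in 13 of 30, but gene spans in that list overlap, so the same regions count for several members. Pcdhgb7 (chr18:37751619-37841870), for example, lies within Pcdhga10 (chr18:37747016-37841870). The 13 of 30 are therefore not separate observations. The 1 olfactory receptor gene tested, Olfr1280, held 7, 1 and 1 against 5, 4 and 2. Members of these families have near-identical copies between which reads can be split, so their counts are uncertain.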

How the data were processed

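H3K9me2 CUT&RUN was read from 6 tumour Treg libraries, 3 cKO and 3 WT, grouped by title. Regions were called per library and not on pooled libraries by the authors with HOMER findPeaks, per the file headers (peak size 500 bp, minimum distance 1000 bp, local filter over 10000 bp at Poisson p 0.05, tag threshold 5), without a control library. The deposited rows are 24.4% to 43.9% of the regions counted in the headers. The submitters' processing notes name Bowtie2 2.4.2, Trim Galore 0.6.6, SAMtools 1.11, Picard, deepTools and mm10, without roles. The deposited Score and the deposited fold over local background (a linear ratio, above 2 in every list) are the authors' values. The deposited ATAC-seq Score was not compared. Each deposited region has a start and an end, from which size in bp was computed.

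Properties of the lists (14 in all) were compared by exact two-sided permutation tests with Benjamini-Hochberg adjustment. Regions per 1 Mb window (mean of at least 10) and per gene (at least 3), as log2(count + 1) scaled to mean list length, were tested with limma 3.58.1 in R 4.3.3 with a variance trend, adjusted over all windows or genes, at 0.05. Python 3.11.15, numpy 2.4.6 and pandas 2.3.3 did the rest. Steps were tested on simulated data. Genes came from the RefSeq table of GRCm38.p6, and 79.6% of its genes had a promoter sequence.

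Same-numbered cKO and WT libraries deviated together over 2406 windows (r = 0.67, 0.36 and 0.27). No label gives pairs, so the numbers were taken as pairs from the data alone, although cKO 2 and WT 3 reached 0.49. In equal lists pairs 1, 2 and 3 had r = 0.78, -0.11 and 0.80, while cKO 2 and WT 3 reached 0.73. Blocked values stand beside results they change. The header names give cKO 1 and cKO 3 the same knockout number, so these libraries may not come from separate animals. Every n given here counts libraries.

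Named genes were the 10 with the lowest p in each direction among those whose groups did not overlap, the 5 with the most regions, up to 2 per list by p, and the study's genes, with windows named likewise, 3 per direction. The members and lists were chosen with earlier results of these data known. Bands of Score, chromosomes, start-site bins, gene-length and gene-content classes and promoters were added after the values had been seen. Alternatives were the lists cut to equal length or thinned, the block, other pseudocounts, minima and scaling, no trend, and each library left out.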

Additional observations from a re-analysis of the deposited data

How the results depend on the processing

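The Score cut and even thinning both shortened the lists, and the cause of each change given here was not tested. As differences of cKO minus WT, the median gap turned from negative to 674 bp in equal lists and 1149 bp in thinned lists. The share of gaps of 5 kb or less turned to -1.16 and -2.05 percentage points and that of regions in runs to -1.33 and -2.17, in the same order. In equal lists gene ends turned to -0.0796 points and sites near ATAC-seq peaks to -0.167. The other 9 of the 14 properties kept their direction in both kinds of list.

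Leaving out 1 library at a time, in lists as deposited or of equal length, gave ranges that crossed 0 for some properties only. Ranges stayed above 0 for the median size (1.33 to 22.7 bp), the mean size (0.136 to 46.5 bp) and the median gap divided by the mean gap (0.00532 to 0.0670). The variance over the mean in 100 kb windows stayed below 0 (-0.485 to -0.0859). Of the ranges that crossed 0, that for the 90th percentile of size ran from -16.5 to 65.8 bp. Regions of 1 kb or more ran from -0.0719 to 3.05 points, and those of 2 kb or more from -0.203 to 0.577. The median gap ran from -1716 to 1265 bp and gaps of 5 kb or less from -2.41 to 3.79 points. Gene ends ran from -0.461 to 0.555 points, gene bodies from -1.80 to 4.79, intergenic regions from -5.35 to 2.26, runs from -2.59 to 4.42 and sites near ATAC-seq peaks from -0.832 to 0.899.

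The windows called by region number, 149 in all, became 617 with the replicate block, 0 in equal lists and 71 in equal lists with the block. They became 3 without a variance trend and 2 without scaling. With a library left out they numbered 25 to 249 as deposited and 0 to 83 in equal lists. Windows called by region size, 2, became 0 with the block, in equal lists, in thinned lists or without a trend, 6 in equal lists with the block, and 0 to 14 with a library left out. Genes called, 9, became 165 with the block, 0 in equal lists with or without the block, 0 in thinned lists, without a trend, with a pseudocount of 0.5 or without scaling, and 0 to 13 with a library left out. The pairing changed no call for the close gaps. For the 14 properties no call was possible with or without it. The smallest p is 0.1 by the exact permutation test and 0.25 by sign flips over pairs.

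Among named genes, the log2 difference reversed in equal lists for Smyd3 (-0.23), Entpd1 (-0.39), Rora (-0.20), Bcl2 (-0.082), Jmjd1c (-0.11), Mitf (0.057) and Cdh13 (0.00088). Without scaling it reversed for Cdh13 (0.056), Sox5 (0.10), Kdm4c (0.031) and Mitf (0.21), and with 5 kb added to the gene span for Mitf (0.0077). In thinned lists it reversed for Pcdhgb7 (0.26) and Pcdhga10 (0.34). With a library left out it ran from -0.021 to 0.54 for Blnk, -0.13 to 0.70 for Cdh1, -0.060 to 0.36 for Jmjd1c and -0.23 to 0.27 for Mitf. Depth limits genes with few regions, and only 4238 of 20665 could be tested.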
